A study of Mus musculus with 12 samples.

Results

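The CCN matricellular family comprises the genes Ccn1 to Ccn6, and all 6 were listed among the 25230 genes counted in each library. The members were taken by symbol and not by their values. RNA-seq was performed on mouse mesangial cells (MMC), the contractile cells between the capillaries of the glomerulus, in 4 groups of 3 libraries each. In WT-SD the cells came from wild-type mice and were serum-depleted, and in WT-TGF wild-type cells received TGF-β (10 ng/ml) over 24 h. KO-SD and KO-TGF were the same conditions in MMC from the lncMGC-KO5 line, made by Cas9 editing of embryos with guides on both sides of the start of lncMGC, a long noncoding RNA that hosts a microRNA cluster. All cells were primary cultures of pooled glomeruli, KO5 is a single line, and the number of mice behind the libraries is not given in the sources used here. The genotype therefore cannot be told apart from the cultures it was measured in, and p-values measure the spread between these libraries, which may be technical.

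CCN proteins are secreted into the extracellular matrix, where they bind integrins, proteoglycans and growth factors and alter how cells respond to them, rather than serving as fibres of the matrix. They are built from modules that resemble IGF-binding proteins, von Willebrand factor type C, thrombospondin and a C-terminal cystine knot, and CCN5 lacks the cystine knot. In the kidney the family is best known for CCN2, also called connective tissue growth factor, which is induced by TGF-β in mesangial cells and is found in diabetic and fibrotic glomeruli. CCN1 and CCN2 are also classical targets of the YAP-TEAD transcription factors, while CCN3 and CCN5 have been described as opposing CCN2 in several settings.

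Sequences of the family are shown first, because the counts of related genes are safe only where a read can be assigned to one of them. In the reference transcripts, none of the 15 pairs of members shared a run of 51 bases, the length of the reads. The longest run shared in the coding sequences was 18 bases, between Ccn1 and Ccn2. The following coding windows of 51 bases, as long as one read, have the shared run in capitals. They lie at chr3:145649324-145649374 on the minus strand and chr10:24595946-24595996 on the plus strand of GRCm38, each within one coding exon, and differed at 13 of 51 bases.
Ccn1: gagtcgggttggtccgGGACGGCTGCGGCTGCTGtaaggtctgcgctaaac
Ccn2: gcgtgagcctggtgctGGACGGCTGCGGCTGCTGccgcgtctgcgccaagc

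Ccn2, Ccn4 and Ccn5 share a run of 13 bases further along the coding sequence, shown in capitals in the windows at chr10:24596526-24596576, chr15:66913005-66913055 and chr2:163829034-163829084, all on the plus strand. The windows of Ccn2 and Ccn4 differed at 18 of 51 bases and those of Ccn4 and Ccn5 at 21.
Ccn2: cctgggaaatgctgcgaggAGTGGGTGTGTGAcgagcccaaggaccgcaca
Ccn4: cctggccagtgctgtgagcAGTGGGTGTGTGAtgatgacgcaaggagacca
Ccn5: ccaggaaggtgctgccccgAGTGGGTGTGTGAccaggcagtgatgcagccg
The 6 genes thus differ within every stretch as long as a read, apart from sequencing error, which was not examined.

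The promoter table from RefSeq (GRCm38.p6) held entries for 2 of the 6 members, Ccn1, which was among the most abundant mRNAs of these cells, and Ccn6, which was nearly absent. The 250 bases before each start in the table, on the minus strand at chr3:145649986-145650235 and chr10:39163795-39164044, are printed from 5′ to 3′ with motif matches in capitals. The motifs searched on both strands were the TEAD motif GGAATG, the SMAD motif CAGACA, the AP-1 motif TGANTCA, the GC box GGGCGG, the TATA box TATAAA and the CArG box of SRF.
Ccn1: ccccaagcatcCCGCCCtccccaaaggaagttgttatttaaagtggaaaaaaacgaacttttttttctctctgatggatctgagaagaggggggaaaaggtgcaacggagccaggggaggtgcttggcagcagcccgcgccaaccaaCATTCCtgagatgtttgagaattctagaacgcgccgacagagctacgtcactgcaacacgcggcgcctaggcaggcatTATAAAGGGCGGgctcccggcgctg
Ccn6: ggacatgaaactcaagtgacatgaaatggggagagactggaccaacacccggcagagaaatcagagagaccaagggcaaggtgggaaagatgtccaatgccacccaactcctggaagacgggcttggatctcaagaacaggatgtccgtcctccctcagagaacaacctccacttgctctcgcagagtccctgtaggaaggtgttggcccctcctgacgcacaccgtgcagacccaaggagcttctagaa
The Ccn1 window held 4 matches. One was a TEAD motif on the opposite strand from -103 to -98, and another was a TATA box from -25 to -20, counted back from the start of transcription. The other two were GC boxes, one on the opposite strand from -239 to -234 and one from -19 to -14, next to the TATA box. The Ccn6 window, which lies inside the annotated span of the gene before an internal start, held 0 matches, and both windows had a GC content of 54.8%. Among 32851 promoter windows of that length, 12.6% held the TEAD motif, 17.1% the SMAD motif, 6.75% the AP-1 motif, 32.7% the GC box, 12.4% the TATA box and 1.47% the CArG box. These matches are a description of the letters and not of binding.

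The libraries had similar depth, between 19898050 and 22827706 counts on genes. A level of 3 counts in a library, taken as the floor of detection, was 0.130 to 0.161 CPM, where CPM are counts relative to the library size after TMM scaling. Genes with RPKM >1 in at least 1 library, 11522 in all, were tested with edgeR's quasi-likelihood test in one fit of the 12 libraries, and FDR is the p-value of this test with Benjamini-Hochberg adjustment over those genes. Ccn1, Ccn2, Ccn3, Ccn4 and Ccn5 were tested, and Ccn6 was not. Ccn3 was tested only because it passed the limit in SD libraries, mainly those of WT. With TMM scaling its RPKM were 1.28 to 1.63 in WT-SD and 0.879 to 0.992 in KO-SD, while the limit was applied before that scaling. The biological coefficient of variation was 0.0268, so small changes passed FDR <5%. Reads outside annotated exons made up 15.2 to 15.4% of the libraries in WT-SD, 12.2 to 12.5% in WT-TGF, 12.7 to 13.4% in KO-SD and 10.3 to 10.9% in KO-TGF, and their part in the results was not tested. The count tables have no row for lncMGC, and its deletion was not checked here. Mirg, which the study places at the end of lncMGC, was at 2.33 ± 0.308 CPM in untreated WT and 3.67 ± 0.547 CPM in untreated KO libraries (SD, n = 3), and at 3.59 ± 0.153 and 4.27 ± 0.549 CPM with TGF-β. Its mean was not lower in KO in either condition, and it does not check the labels. The directions given for KO are those of the libraries as labelled.

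Markers of mesangial and smooth muscle cells were present in every library, with Pdgfrb at 288 ± 4.15 and Acta2 at 1567 ± 63.9 CPM (SD, n = 3) in WT-SD. Nphs1 of podocytes and Pecam1 and Cdh5 of endothelial cells were at or near 0 in all groups, and Lrp2 and Cubn of tubular cells were at 42.6 and 3.0 CPM in WT-SD. Of the markers of macrophages, Adgre1 was at 7.67 ± 0.0661 CPM in WT-SD and at 0 in all KO libraries, and Csf1r was at 1.99 ± 0.247 CPM in WT-SD against 0.592 ± 0.116 in KO-SD. The summed level of 10 mesangial and smooth muscle markers ranged from 7938 to 8259 CPM in WT-SD, 13561 to 13856 in WT-TGF, 11088 to 11343 in KO-SD and 20905 to 21140 in KO-TGF. That sum came mainly from Col4a1, Vim, Acta2 and Tagln. Of the 9 tested, 8 were higher and 1 lower in KO in SD, and 7 and 2 with TGF-β. Des of the same list was at 7.67 CPM in WT-SD, 0.529 in KO-SD and 0.248 in KO-TGF. Itga8 was at 2.89 CPM in WT-SD, 3.05 in KO-SD and 0.638 in KO-TGF. The sum of 7 podocyte markers, which came mainly from Synpo, Wt1 and Podxl, was 459 to 467 CPM in WT-SD, 455 to 474 in WT-TGF, 218 to 227 in KO-SD and 205 to 220 in KO-TGF. That of 8 macrophage markers was 34.4 to 37.4, 18.4 to 21.8, 8.13 to 9.77 and 2.30 to 2.62 CPM in the same order. The sum of 7 endothelial markers was 32.9 to 33.3, 20.1 to 22.5, 17.2 to 18.4 and 9.25 to 10.9 CPM, nearly all of it from Ehd3. The sum of 8 tubular markers was 75.7 to 81.2, 22.1 to 25.01, 23.1 to 25.1 and 9.68 to 10.6 CPM, with Slc34a1 and Umod at 0 in every library. These sums moved with the genotype and, apart from the podocyte sum, with TGF-β in both genotypes, and their part in the changes of the CCN genes was not tested. In bulk samples, fewer cells of a type and less RNA per cell cannot be told apart.

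In wild-type MMC, TGF-β raised Ccn1, Ccn2, Ccn4 and Ccn5 and lowered Ccn3. Ccn3 entered the test only through its higher level in SD libraries and is left out of the counts that follow, which cover the other 4 members tested. These 4 passed FDR <5%, against 72.5% of all genes tested, and their libraries did not overlap between the groups, against 75.1%. All 4 were higher, against 36% of genes, and 0 were lower, against 36.4%. With a fold change >2 as well, 3 were higher, against 4.14% of genes, and 0 were lower, against 5.79%. In KO cells the 4 members again passed (background 74.1%), without overlap of libraries (74.4%). The treatment raised 3 of them there (34.9%) and lowered Ccn5 (39.1%). With a fold change >2, 2 were higher (4.37%) and 0 were lower (9.16%). With plain library sizes in place of TMM, 2640 of all genes were higher and 6054 lower with TGF-β in WT, where TMM gave 4149 and 4199, and 2296 were higher and 6716 lower in KO, where TMM gave 4025 and 4509. That scaling shifted the median log2 fold change of all genes to -0.16 in WT and -0.23 in KO, and the 5 members kept their directions under it in both comparisons.

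**Figure D1:**
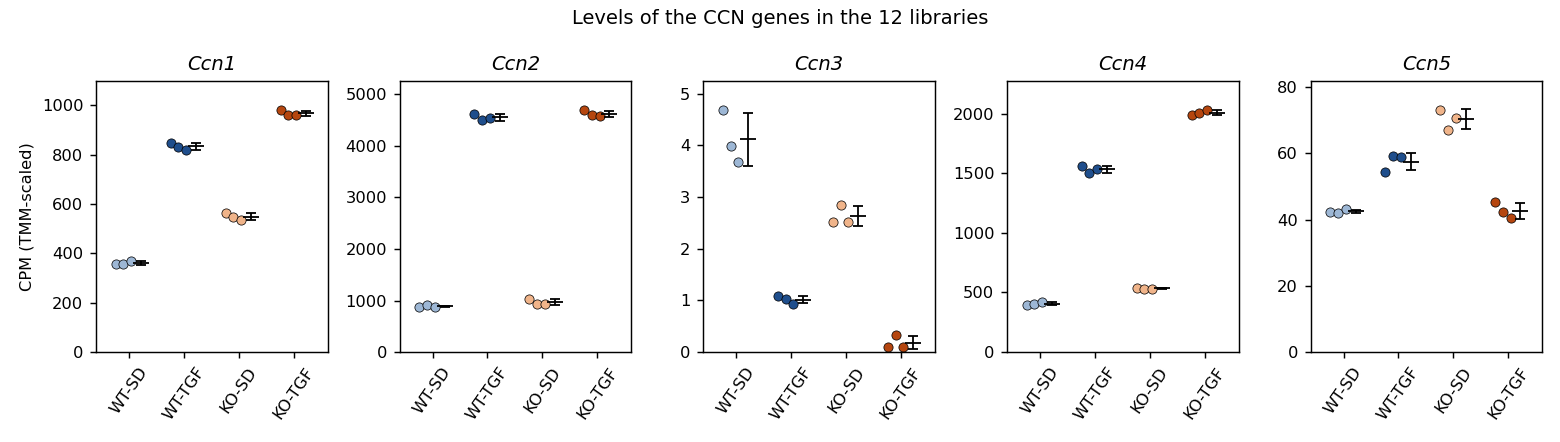
Level of each detected CCN gene in CPM (TMM-scaled, linear axis from 0, its range set per gene) in the 12 libraries, with points for libraries and bars for the mean ± SD of 3 libraries. Ccn1, Ccn2 and Ccn4 were higher in every TGF-β library than in any SD library, Ccn3 was lower, and Ccn5 was highest in KO-SD, between 67 and 73 CPM.

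Ccn2 (NCBI gene 14219) lies on chromosome 10 of GRCm38.p6 from 24595442 to 24598683 on the plus strand, with 5 exons. Its counts were 19211, 20836 and 19361 in WT-SD and 97667, 100834 and 91999 in WT-TGF, which was 0.0958 to 0.0990% and 0.442 to 0.451% of all counts on genes. In CPM the 3 WT-SD libraries were at 874, 904 and 881 and the 3 WT-TGF libraries at 4617, 4495 and 4545. The groups lay far apart, and Ccn2 was the member with the most RNA in all 4 groups.

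The log2 fold change of Ccn2 with TGF-β in WT was 2.36 (standard error 0.0264, edgeR FDR = 7.15e-34), a 5.14-fold rise. Of the 11522 genes tested, 107 had a larger log2 fold change. By RPKM, a level per exon length, Ccn2 ranked 39 of 24683 genes in WT-SD and 3 in WT-TGF. In KO cells it had 1029, 941 and 939 CPM in SD and 4694, 4592 and 4576 CPM with TGF-β, a log2 fold change of 2.25 (standard error 0.0263, edgeR FDR = 1.59e-33). TGF-β thus added 3666 ± 63.4 CPM (SD combined from both groups, n = 3 each) in WT and 3651 ± 82.1 CPM in KO.

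The genotypes differed little in Ccn2. Before treatment KO was higher than WT by 0.13 on the log2 scale (standard error 0.0256, edgeR FDR = 6.93e-05), a value that was 0.09 without KO-SD replicate 1, the highest library of its group, and 0.05 (FDR = 0.0578) when scaled by library size alone. With TGF-β the libraries of both genotypes overlapped and the log2 fold change was 0.02, with a 95% interval from -0.03 to 0.07 (edgeR FDR = 0.488), but it was -0.10 (FDR = 0.000576) with scaling by library size alone. The TGF-β response of Ccn2 was smaller in KO by 0.11 on the log2 scale (standard error 0.0358, edgeR FDR = 0.0234). This difference was -0.08 with FDR = 0.175 in DESeq2, and it missed FDR <5% when any of 6 single libraries was left out, among them KO-SD replicate 1, where it was -0.06.

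Ccn1 (NCBI gene 16007), the cysteine-rich angiogenic protein once named Cyr61, lies on chromosome 3 from 145646971 to 145649985 on the minus strand and is an immediate-early gene in many cells. It had 7830, 8271 and 8097 counts in WT-SD, 17960, 18688 and 16600 in WT-TGF, 12266, 11318 and 11685 in KO-SD and 18315, 17946 and 18303 in KO-TGF. In CPM the groups were at 361 ± 6.56, 834 ± 14.5, 548 ± 13.9 and 968 ± 11.7 (SD, n = 3) in the same order. No library of one group overlapped with one of another, and the order was WT-SD, then KO-SD, then WT-TGF and KO-TGF at the top.

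The TGF-β response of Ccn1 was 1.21 on the log2 scale in WT (standard error 0.0242, edgeR FDR = 1.26e-27), or 2.31-fold, and 0.82 in KO (standard error 0.0238, edgeR FDR = 1.36e-23), or 1.76-fold. KO was 51.9% higher than WT in SD (log2 fold change 0.60, standard error 0.0243, edgeR FDR = 1.90e-19) and 16.0% higher with TGF-β (log2 fold change 0.21, standard error 0.0235, edgeR FDR = 3.75e-09). The latter was 0.09 (FDR = 0.000809) with scaling by library size alone. The gap between the genotypes was thus wider before treatment, and the difference in response was -0.39 (standard error 0.0337, edgeR FDR = 1.57e-10). In CPM, TGF-β added 473 ± 16.0 in WT and 419 ± 18.1 in KO.

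Ccn4 (NCBI gene 22402), once named Wisp1 and known as a Wnt-induced secreted protein, lies on chromosome 15 from 66891369 to 66923201 on the plus strand. Its libraries were at 396, 402 and 423 CPM in WT-SD, 1564, 1504 and 1537 in WT-TGF, 541, 529 and 530 in KO-SD and 1984, 2009 and 2030 in KO-TGF. KO was above WT in both conditions and TGF-β above SD in both genotypes, without overlap.

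With TGF-β, Ccn4 rose by a log2 fold change of 1.92 in WT (standard error 0.0245, edgeR FDR = 1.67e-32), or 3.77-fold, and by 1.91 in KO (standard error 0.0243, edgeR FDR = 1.33e-32), also 3.77-fold. The difference between both responses was -0.00 on the log2 scale, with a 95% interval from -0.07 to 0.07 (edgeR FDR = 0.966). KO was 31.1% higher than WT in SD (log2 fold change 0.39, standard error 0.0243, edgeR FDR = 1.00e-14) and 30.8% higher with TGF-β (log2 fold change 0.39, standard error 0.0233, edgeR FDR = 4.31e-15). An equal fold from a higher level meant that TGF-β added 1128 ± 33.1 CPM in WT and 1475 ± 23.6 CPM in KO. Ccn4 was the member with the highest KO level relative to WT under TGF-β.

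Ccn5 (NCBI gene 22403), once named Wisp2 and abundant in quiescent smooth muscle cells, lies on chromosome 2 from 163820752 to 163833146 on the plus strand. Its CPM was 42.4 ± 0.546 in WT-SD and 57.5 ± 2.66 in WT-TGF, and 70.3 ± 2.98 in KO-SD and 42.6 ± 2.35 in KO-TGF (SD, n = 3). The counts behind these values were 927, 970 and 946 in WT-SD, 1151, 1328 and 1191 in WT-TGF, 1590, 1391 and 1543 in KO-SD and 843, 788 and 771 in KO-TGF. With TMM scaling the level in KO thus fell to the range of untreated WT cells, whose libraries overlapped with those of KO-TGF. As a share of all counts on genes, KO-TGF at 0.00364 to 0.00408% was below WT-SD at 0.00461 to 0.00468%, without overlap.

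TGF-β raised Ccn5 by a log2 fold change of 0.44 in WT (standard error 0.0448, edgeR FDR = 4.20e-10), or 0.28 with scaling by library size alone, and lowered it in KO, where the log2 fold change was -0.72 (standard error 0.0448, edgeR FDR = 3.15e-15). The difference in response was -1.16 (standard error 0.0633, edgeR FDR = 4.42e-15), and 277 of the 11522 genes had a lower value. The genotype difference turned in the same way. KO was 65.8% higher than WT in SD (log2 fold change 0.73, standard error 0.0435, edgeR FDR = 3.63e-15) and lower with TGF-β (log2 fold change -0.43, standard error 0.0460, edgeR FDR = 2.02e-09). Both directions were kept under each alternative that was run, including each library left out.

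Ccn3 (NCBI gene 18133), once named Nov and associated with reduced growth and matrix synthesis in mesangial cells, lies on chromosome 15 from 54745910 to 54753762 on the plus strand, 12.1 Mb from Ccn4. It was a rare mRNA, with 103, 92 and 81 counts in WT-SD, 23, 23 and 19 in WT-TGF, 55, 59 and 55 in KO-SD and 2, 6 and 2 in KO-TGF. These were 4.12 ± 0.511, 1.02 ± 0.0747, 2.63 ± 0.186 and 0.178 ± 0.124 CPM (SD, n = 3). The 4 groups did not overlap, and 2 of the 3 KO-TGF libraries were under the floor of 3 counts.

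The log2 fold change of Ccn3 with TGF-β was -2.01 in WT (standard error 0.187, edgeR FDR = 5.97e-11), or 4.03-fold lower, and -3.85 in KO (standard error 0.322, edgeR FDR = 4.41e-12), with a 95% interval from -4.50 to -3.19. KO was lower than WT in SD (log2 fold change -0.65, standard error 0.151, edgeR FDR = 0.000546) and with TGF-β (log2 fold change -2.48, standard error 0.405, edgeR FDR = 4.74e-06). The difference in response was -1.84 (standard error 0.451, edgeR FDR = 0.00240). The values for KO-TGF rest on 10 counts in all, and the library with 6 of them matters most. Without KO-TGF replicate 2 the log2 fold changes became -4.54 for TGF-β in KO, -3.18 for KO against WT and -2.51 for the difference in response. Since Ccn3 entered the test through its level in SD libraries, mainly those of WT, a lower value with TGF-β is in part fixed by that limit. So is a lower value in KO than in WT in SD. The limit also bears on the difference in response, which uses the same libraries.

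Ccn6 (NCBI gene 327743), once named Wisp3, lies on chromosome 10 from 39150970 to 39174376 on the minus strand, 14.6 Mb from Ccn2. It had 1 count in WT-TGF replicate 1 and 0 in the other 11 libraries. At this depth it was not detected, since more than 3 counts would have been needed in a library, and no fold change is given.

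**Figure D2:**
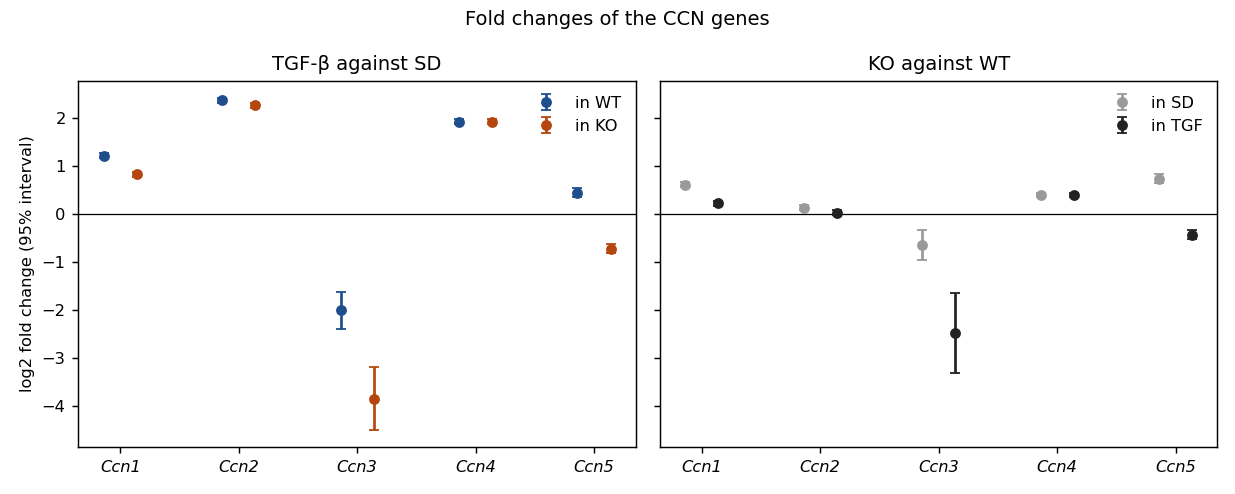
Log2 fold change with its 95% interval of each tested CCN gene for TGF-β against SD in WT and in KO (left) and for KO against WT in SD and with TGF-β (right). Ccn5 was at 0.44 in WT and -0.72 in KO with TGF-β, Ccn4 at 1.92 and 1.91, and the interval of Ccn2 for KO against WT with TGF-β, -0.03 to 0.07, includes 0.

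Set side by side, KO differed from WT in SD for Ccn1, Ccn2, Ccn4 and Ccn5 at FDR <5%, against 56.1% of all genes, and without overlap of libraries, against 59.2%. KO was higher for these 4 (background 30.9%) and lower for 0 (25.2%), with Ccn3 again left out of the counts. None of the 4 had a fold change >2 there (background 3.2% higher and 3.24% lower). With TGF-β, 3 of the 4 passed (background 55.1%), and the libraries of these 3 did not overlap (61.5%). KO was higher for 2 (Ccn1 and Ccn4, background 27.3%) and lower for 1 (Ccn5, background 27.8%), and the fold change was under 2 in each (background above it 1.38% higher and 4.69% lower). The difference in TGF-β response between the genotypes passed FDR <5% for 3 of the 4 (Ccn1, Ccn2 and Ccn5, background 25.3%). All 3 values were negative, against 16.6% of genes with a negative and 8.67% with a positive one. Of these, Ccn5 differed more than 2-fold (2.4% of genes, and 0.338% in the positive direction). For Ccn1 and Ccn2 a negative value was a smaller rise in KO, and for Ccn5 a fall in place of a rise. The comparisons share their control libraries and are not independent of one another. For one gene alone, the smallest p-value that an exact permutation test can give with 3 libraries per group is 0.1.

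On a scale per exon length, Ccn2, Ccn1 and Ccn4 made up nearly all RNA of the family. The summed RPKM of the 6 members was 585 ± 7.61 in WT-SD and 744 ± 26.7 in KO-SD (SD, n = 3), and 2310 ± 30.4 in WT-TGF and 2477 ± 25.5 in KO-TGF. With TMM scaling, which these RPKM carry, the groups did not overlap. The TMM factors were 0.977 to 0.983 in WT-TGF and 0.898 to 0.904 in KO-TGF. As a mean share of all counts on genes, Ccn2 was at 0.446% in WT-TGF and 0.416% in KO-TGF. By that share Ccn1 (0.0817% and 0.0871%) and Ccn4 (0.150% and 0.181%) were higher in KO-TGF. Whether the sums with TGF-β differ between genotypes without TMM scaling was not tested. Within that sum, the share of Ccn2 was 52.9 ± 0.720% in WT-SD and 45.5 ± 0.766% in KO-SD, and with TGF-β it was 68.9 ± 0.132% in WT and 65.2 ± 0.243% in KO. The share of Ccn1 was 30.6% in WT-SD, 36.5% in KO-SD, 17.9% in WT-TGF and 19.3% in KO-TGF. TGF-β thus moved the mixture from 1.73 to 3.85 Ccn2 for each Ccn1 in WT and from 1.25 to 3.37 in KO, as ratios of RPKM. Ccn4 held a share of 11.9 to 14.6% in all groups, with the highest in KO-TGF. The ratio of Ccn4 to Ccn5 was 3.31 ± 0.0737 in WT-SD and 9.25 ± 0.607 in WT-TGF, and 2.62 ± 0.0895 in KO-SD and 16.3 ± 1.07 in KO-TGF. In the order of levels Ccn2, Ccn1, Ccn4, Ccn5 and Ccn3 the members kept their places in every library. These shares are descriptions and were not tested.

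**Figure D3:**
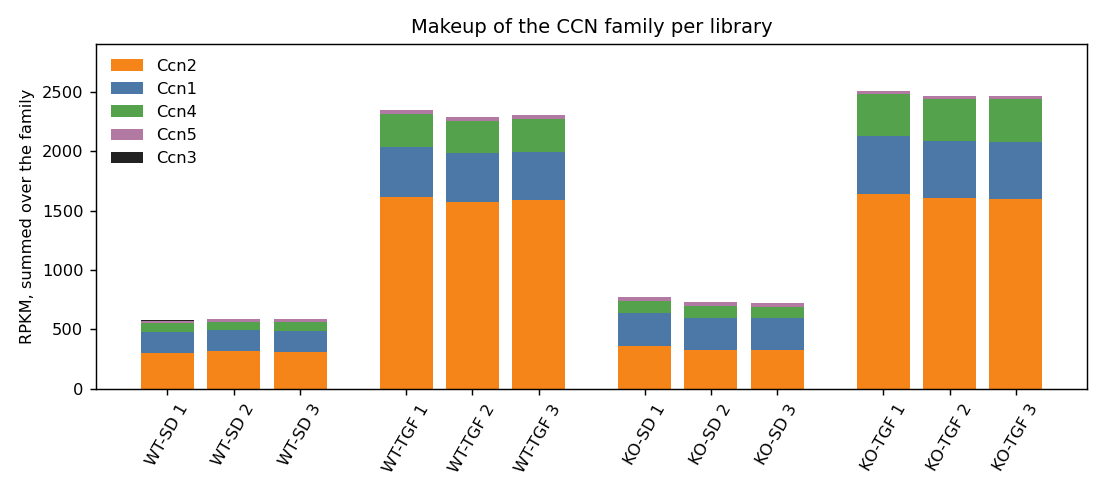
Summed RPKM of the CCN genes in each library, with the part of each gene stacked from 0. The sum was near 585 in WT-SD and 2310 in WT-TGF, Ccn2 was the largest part in all 12 libraries, and Ccn3, at most 1.63 RPKM, is too thin to be seen.

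Genes whose pattern over the 12 libraries was most like that of a member were found by the root mean square difference in log2 CPM, each gene centred on its own mean. For Ccn1 these were Bnc2 (0.0454), Sox11 (0.0561) and Baiap2 (0.0684), where the median of 11517 genes was 0.591. Bnc2, a zinc finger protein, was at 64.0, 146, 91.9 and 167 CPM over WT-SD, WT-TGF, and both KO groups in the same order, and so had the same order of groups as Ccn1. For Ccn2 they were Dkk2, a secreted regulator of Wnt signaling (0.0590), Tnfrsf12a, the receptor of TWEAK (0.0772), and Acpp, an acid phosphatase (0.0794), against a median of 1.18. For Ccn4 they were Ppp1r13l (0.0889), Chsy1, which builds chondroitin sulfate chains (0.0976), and Adam12, a metalloprotease (0.112), against a median of 1.0. The nearest genes to Ccn5 were farther from it than those of the other members, with Rftn1 at 0.166, Adamts7 at 0.173 and Sertad4 at 0.175, against a median of 0.373. Of these, Rftn1 and Adamts7 were also lower with TGF-β in KO, by log2 fold changes of -0.58 and -0.58, and Sertad4 was at -0.41. In WT the values of Rftn1, Adamts7 and Sertad4 were 0.21, 0.09 and 0.32, against 0.44 for Ccn5. The genes were chosen for their likeness to Ccn5, so a fall in KO is in part fixed by that choice. Ccn3 was below 5 CPM in every group and was not compared in this way.

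The surface receptors of CCN proteins were described from a list of 16 genes, mainly integrin chains, of which 13 were tested. The counts of this and the following lists stand beside those of all genes, of which 36% were higher and 36.4% lower with TGF-β in WT, 34.9% and 39.1% in KO, and 27.3% and 27.8% in KO-TGF against WT-TGF. With TGF-β, 7 of the 13 tested were higher and 6 lower in WT (median log2 fold change 0.21, against -0.00 for all genes), and 7 were higher and 6 lower in KO (median 0.12, against -0.03). In KO, scaling by library size alone turned the latter to 5 higher and 8 lower. Itga5, the α chain of the fibronectin receptor, rose from 172 ± 8.45 to 1193 ± 31.0 CPM in WT (SD, n = 3, log2 fold change 2.79, standard error 0.0289, edgeR FDR = 1.23e-34). The largest fall was that of Fgfr2, a receptor of fibroblast growth factors, at -0.51 (edgeR FDR = 6.14e-12). Between genotypes with TGF-β, 4 receptors were higher and 7 lower in KO (median -0.07), with Itga5 at 1994 ± 9.16 CPM in KO (log2 fold change 0.74), and Itga2, a collagen receptor chain, at 35.0 ± 1.15 CPM against 80.6 ± 1.66 in WT, a log2 fold change of -1.20. The response of Itga5 was larger in KO by 0.29 (edgeR FDR = 9.22e-07).

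Of 13 proteins that CCN proteins bind, 10 were tested, while Bmp2, Gdf5 and Acan were not. In WT, 7 were higher with TGF-β and 3 lower (median 0.97), and in KO also 7 and 3 (median 0.83). Tgfb1, the ligand itself, rose in WT from 59.5 ± 0.150 to 284 ± 3.72 CPM (by 2.25 on the log2 scale, edgeR FDR = 2.90e-32), and its response in KO differed by -0.01 (edgeR FDR = 0.851). Dcn, which encodes the small proteoglycan decorin, fell in WT from 9.83 ± 0.663 CPM to 3.60 ± 0.326 (log2 fold change -1.45, edgeR FDR = 2.56e-13). In KO, Dcn was at 59.3 ± 3.69 CPM in SD and 18.8 ± 0.697 CPM with TGF-β, 2.39 above WT on the log2 scale with TGF-β (edgeR FDR = 1.65e-19). Bmp4, a growth factor of the BMP family, was at 34.2 ± 0.330 CPM in KO-TGF against 101 ± 3.43 CPM in WT-TGF, a log2 fold change of -1.56. In that comparison 5 of the list were higher and 3 lower (median 0.10), and with scaling by library size alone 5 and 5.

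The proteases described as cutting CCN proteins were 7 genes, 5 of them tested (Mmp7 and Adam28 were not). In WT, 3 were higher and 2 lower with TGF-β (median 0.58), and in KO also 3 and 2 (median 0.20), the latter 2 and 2 with scaling by library size alone. Mmp14, a membrane-bound protease, rose in WT from 656 ± 2.53 to 1189 ± 18.4 CPM (by 0.86 on the log2 scale, edgeR FDR = 9.32e-26), and Mmp3, a stromelysin, fell from 10.1 ± 0.697 to 5.33 ± 1.27 CPM (log2 fold change -0.91, edgeR FDR = 1.33e-07). With TGF-β, 2 were higher and 3 lower in KO than in WT (median -0.77). Mmp9, a gelatinase, was at 9.36 ± 0.956 CPM in KO-TGF against 1.76 ± 0.0899 CPM (log2 fold change 2.41, edgeR FDR = 1.68e-14), while Mmp13, a collagenase, was at 3.38 ± 0.370 against 12.1 ± 1.09 CPM (log2 fold change -1.84, edgeR FDR = 8.73e-13).

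All 18 regulators of CCN transcription were tested, that is YAP and TAZ with their TEAD partners and kinases, SRF with its coactivators, SMADs and a few others. The changes of their mRNAs were small, since none had a fold change >2 in any comparison. In WT, 8 were higher and 5 lower with TGF-β (median -0.01), and in KO 8 and 6 (median 0.11), but 7 and 9 in each genotype with scaling by library size alone. Jun, a subunit of AP-1, rose in WT from 65.3 ± 1.88 to 124 ± 3.87 CPM (by 0.93 on the log2 scale, edgeR FDR = 5.91e-20), and Smad3, which carries the TGF-β signal to the nucleus, fell from 153 ± 1.17 to 108 ± 1.79 CPM (log2 fold change -0.50, edgeR FDR = 1.97e-15). In KO-TGF against WT-TGF, 7 were higher and 4 lower (5 and 11 with scaling by library size alone). Tead4, a DNA-binding partner of YAP, had a log2 fold change of 0.62 (edgeR FDR = 0.00157) at 5.41 ± 1.13 CPM, and Vgll4, which competes with YAP for TEAD, one of -0.48 (edgeR FDR = 3.00e-11) at 56.1 ± 3.04 CPM.

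Ccn1 and Ccn2 were also set beside other targets of YAP-TEAD. Of 20 tested from a list of 21 (Igfbp3 was not), 12 were higher and 8 lower with TGF-β in WT (median 0.24), and 11 and 8 in KO (median 0.23). The largest rise in WT was that of Nuak2, a kinase, with a log2 fold change of 1.61 (edgeR FDR = 3.47e-26), and the largest fall that of Wwc1, an upstream regulator of the Hippo kinases, with -1.43 (edgeR FDR = 9.33e-26). Wwc1 was also the lowest in KO-TGF against WT-TGF (log2 fold change -1.20) and Foxf2, a forkhead factor, the highest (1.01). In that comparison 8 were higher and 8 lower, or 6 and 12 with scaling by library size alone. The difference in TGF-β response was positive for 9 of the 20 (8.67% of all genes) and negative for 2 (16.6%). Ankrd1, the third gene usually named with Ccn1 and Ccn2 as a YAP target and singled out after its values were seen, had log2 fold changes of 1.05 in WT and 1.65 in KO, a difference of 0.60 (standard error 0.0467, edgeR FDR = 1.34e-11).

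All 11 other targets of TGF-β were higher with TGF-β in WT (median log2 fold change 1.73), and 10 were higher and 1 lower in KO (median 1.33). With scaling by library size alone, 10 and 0 passed in WT. Il11, a cytokine, had the largest rise, in WT from 1.27 ± 0.255 to 62.6 ± 2.92 CPM (by 5.62 on the log2 scale, edgeR FDR = 1.85e-30). With TGF-β, 4 were higher and 7 lower in KO (median -0.10). Acta2, smooth muscle actin, had the highest log2 fold change there, 1.10, at 6288 ± 32.5 CPM in KO-TGF against 2930 ± 64.5 CPM.

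Other matricellular proteins were described from 14 genes, of which Thbs4, Tnxb and Sparcl1 were not tested. In WT, 7 of 11 were higher with TGF-β and 3 lower (median 0.42), and in KO 5 and 4 (median -0.00), the latter 4 and 6 with scaling by library size alone. Tnc, encoding tenascin-C, rose in WT from 2035 ± 17.4 to 4461 ± 185 CPM (by 1.13 on the log2 scale, edgeR FDR = 1.07e-27), and Fbln5, encoding fibulin-5 of elastic fibres, fell from 406 ± 4.89 to 195 ± 5.65 CPM (log2 fold change -1.05, edgeR FDR = 2.31e-23). The difference in response was negative for 8 of the 11 (16.6% of all genes) and positive for 2 (8.67%), with a median of -0.40 against -0.03 for all genes. In SD, 8 were higher (30.9% of all genes) and 3 lower (25.2%) in KO (median 0.59, against 0.02), and with TGF-β 4 and 4 (median -0.06), or 4 and 6 with scaling by library size alone. Postn, encoding periostin, was at 354 ± 11.3 CPM in KO-TGF against 158 ± 6.11 CPM in WT-TGF (log2 fold change 1.16), and Smoc1, a calcium-binding matrix protein, at 28.4 ± 1.55 against 63.6 ± 3.65 CPM (log2 fold change -1.16).

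**Figure D4:**
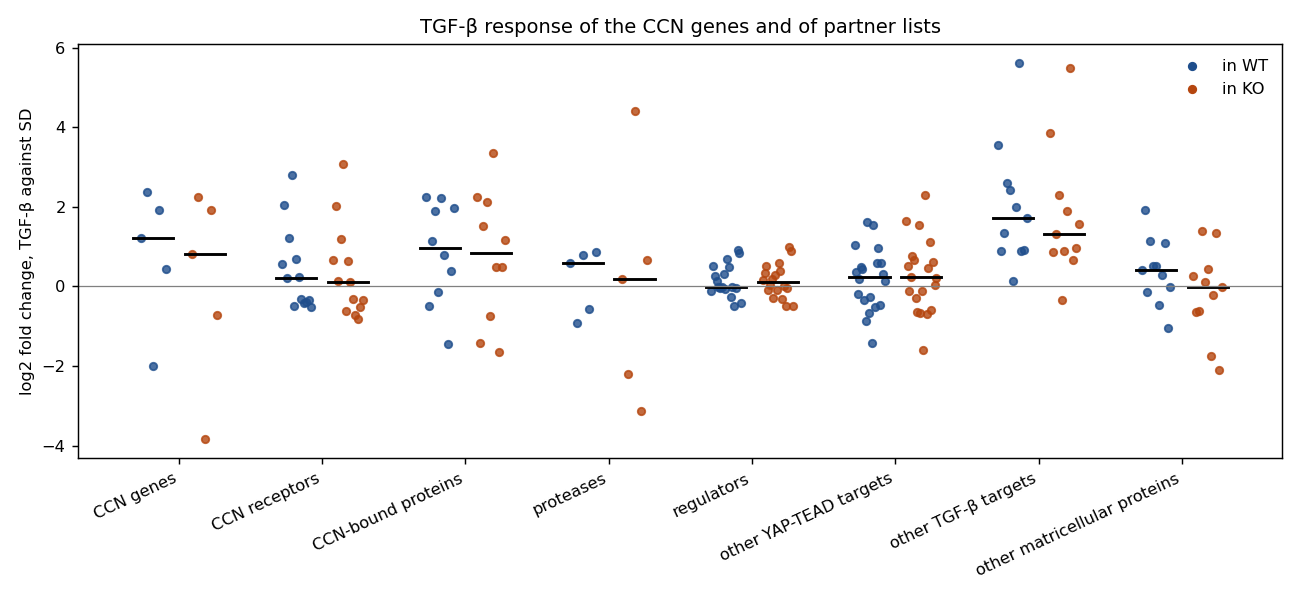
Log2 fold change with TGF-β against SD of every tested gene of the CCN family and of 7 lists, in WT and in KO, each point a gene and each black line the median of its list. The medians of the other TGF-β targets were 1.73 in WT and 1.33 in KO, and those of the regulators of CCN transcription -0.01 and 0.11.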

How the data were processed

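RNA was sequenced as 12 MMC libraries in 4 groups of 3, mapped to groups by the sample titles. Per the labels and methods, the authors prepared mRNA libraries and mapped single-end reads of 51 bases with TopHat (mm10). HTSeq then counted reads per RefSeq gene, strand-specifically, leaving out poor alignments. Raw counts per gene and library are what the authors deposited. Reads with several alignments (11.2 to 11.7%) are not in them. The totals of reads outside exons, ambiguous or not unique were left out of library sizes and tests. No other columns of values were present.

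Here, RPKM used exon lengths of GENCODE vM21 (24683 genes), coordinates came from RefSeq GRCm38.p6, and genes with RPKM >1 in at least 1 library were kept (11522). Counts were normalized by TMM and tested with edgeR 4.0.16 (R 4.3.3, quasi-likelihood test, Benjamini-Hochberg adjustment, called at FDR <5%), in one fit with 1 mean per group. The code was tested on simulated data. CPM are means ± SD of 3 libraries. Depth was 19898050 to 22827706 counts on genes, and the floor of 3 counts covers counting error only.

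Named genes were the 6 members and, per list, the largest rise and fall at FDR <5% with at least 5 CPM for TGF-β in WT and for KO against WT with TGF-β. They also include the first 2 markers of each cell type, the 3 genes nearest to each member with at least 5 CPM, and Mirg. Genes outside this rule were chosen after their values were seen, and some genes that meet it are not reported here. The members and lists were chosen with earlier results of these data known. The alternatives were scaling by library size, DESeq2 1.42.0, no filter, CPM >1 in at least 3 libraries, a replicate block, only the groups compared, and each library left out.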

Additional observations from a re-analysis of the deposited data

Results flagged for a closer look

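The TGF-β response differed between the genotypes for 4 of the 5 CCN genes tested, by the interaction term in edgeR (quasi-likelihood, Benjamini-Hochberg adjusted, FDR <5%). Of all genes tested, 25.3% passed, 16.6% with a negative and 8.67% with a positive value. This split was more even when any single KO-TGF library was left out. The 4 include Ccn3, which the earlier counts left out. As KO minus WT on the log2 scale, the difference was -0.39 for Ccn1, -0.11 for Ccn2, -1.84 for Ccn3 and -1.16 for Ccn5. Ccn5 stands apart because its libraries moved in opposite directions, upward in 3 of 3 WT-TGF libraries and downward in 3 of 3 KO-TGF libraries, each against all SD libraries of its genotype. The value of Ccn3 rests on 2, 6 and 2 counts in KO-TGF, and that of Ccn2 lost its call in DESeq2 and without any of 6 single libraries. Genotype and culture cannot be told apart in these differences.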

How the results depend on the processing

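The 25 fold changes of the 5 tested members were recomputed under 18 alternatives, which gave 444 values, of which 427 kept their direction and their side of FDR <5%. The difference in TGF-β response of Ccn4, -0.0031 and not called in any alternative, changed its sign to 0.024 in DESeq2 and ranged from -0.034 to 0.045 with one library left out. The log2 fold change of Ccn2 between KO and WT with TGF-β, 0.02, became -0.10 (FDR = 0.000576) with scaling by library size alone, which also took Ccn2 between KO and WT in SD to 0.05 (FDR = 0.0578). That scaling moved the median of all genes to -0.13 and -0.06 in these comparisons, and the calls of all genes from 3143 higher and 3200 lower to 1642 and 5407 with TGF-β, from 3560 and 2905 to 2445 and 4188 in SD, and from 8.67% and 16.6% of genes to 685 and 2648 genes for the difference in response. The difference in TGF-β response of Ccn2 was -0.08 (FDR = 0.175) in DESeq2 and ranged from -0.13 to -0.06 with one library left out. It missed FDR <5% without WT-SD replicate 1, WT-TGF replicate 1, KO-SD replicate 1 or KO-TGF replicate 1, 2 or 3. Leaving out a KO-TGF library also moved the difference in response of all genes, from a median of -0.031 to 0.0079, 0.0061 and 0.0077. The calls were then 1326 positive and 1420 negative, 1249 and 1406, and 1256 and 1376, in the same order. With scaling by library size alone, Ccn1 between KO and WT with TGF-β went from 0.21 to 0.09 and Ccn5 with TGF-β in WT from 0.44 to 0.28. The cause was not tested. The numbers of members called at FDR <5% stayed within 1 of the values reported with scaling by library size alone. A value for Ccn3 in KO against WT with TGF-β is missing from the fit of only the groups compared, where it was under the RPKM limit. Depth limits Ccn3 in KO-TGF and Ccn6.

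With the replicate number as a block, the number of members called for TGF-β against SD in WT was 5, as without it, and the block changed no call of a member. Over the 18 pairs of libraries with the same number, the correlation of deviations from the group means ranged from -0.0265 to 0.0757. None was over 0.1, yet 10 of 12 libraries correlated best with their own number. Whether the numbers weakly pair the samples was not settled.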

Other observations

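The genes next to the CCN genes on the chromosome were read as well, chosen by position and named here after their values were seen. Enpp1, an ectonucleotide pyrophosphatase that lies 39230 bases from Ccn2, rose from 23.5 ± 0.610 CPM in WT-SD to 119 ± 4.02 CPM in WT-TGF (SD, n = 3) and from 35.4 ± 1.41 CPM in KO-SD to 107 ± 4.75 CPM in KO-TGF. Its log2 fold change was 2.33 in WT and 1.59 in KO, a difference of -0.74 (edgeR quasi-likelihood FDR = 1.34e-10). Ndrg1, a stress-responsive gene that ends 6116 bases from Ccn4, moved the other way and fell in WT cells from 260 ± 4.63 CPM to 163 ± 6.74 (log2 fold change -0.67, edgeR FDR = 1.78e-18), while in KO it was at 206 ± 3.19 CPM in SD and 205 ± 8.21 CPM with TGF-β (log2 fold change -0.00, edgeR FDR = 0.943). Of the neighbours of Ccn1, Znhit6 had log2 fold changes of -0.46 in WT and -0.75 in KO and Ddah1, which breaks down an inhibitor of nitric oxide synthesis, 0.74 and 0.61. Kcnk15 beside Ccn5 had no count in any library.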
